A study of Mus musculus with 82 samples.

Results

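The genes described here encode the respiratory chain, the machinery with which mitochondria make ATP from oxygen. Members were all genes of the 3 count tables whose symbol starts with mt-, Nduf, Uqcr, Cox4 to Cox8 or Atp5, together with Sdha, Sdhb, Sdhc and Sdhd. This rule, which uses names and no measured value, gave 107 of 21823 genes. Of these, 13 are encoded by mitochondrial DNA and 94 by nuclear DNA. The mitochondrially encoded members are 7 subunits of complex I, 1 of complex III, 3 of complex IV and 2 of complex V. The nuclear members are 36 subunits and 8 assembly factors of complex I, 4 subunits of complex II, 8 of complex III, 20 of complex IV and 18 of complex V, with Ndufa4 and Ndufa4l2 counted in complex IV.

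RNA was measured in 82 libraries of mouse T cells specific for ovalbumin (OVA), either OT-I cells, which are CD8 T cells, or OT-II cells, which are CD4 T cells. Both cell types had been transferred into C57BL/6 recipients, which then received saline, 5 µg of plain OVA, or synthetically glycosylated OVA (pGal-OVA, here called pGal), and the transferred cells were sorted from pooled spleen and lymph nodes 4 days later. The 29 prophylactic libraries, in batches 1 and 2, each came from 3 pooled mice treated 1 day after the transfer, with 5 libraries per treatment for OT-I cells and 5 saline, 4 OVA and 5 pGal libraries for OT-II cells. The 53 therapeutic libraries each came from 1 mouse that had been immunized with OVA in complete Freund's adjuvant a month before treatment, saline recipients included, with 8 saline, 10 OVA and 10 pGal libraries for OT-I cells and 7, 8 and 10 for OT-II cells. Prophylactic cells were sorted into Trizol and therapeutic cells into buffer, then frozen, so immunization, pooling, sorting medium and run all change with the experiment. The pGal amount is given as 5 µg in one place and as the molar equivalent of the OVA in another, so equal antigen amounts cannot be assumed.

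Complexes I and II pass electrons from NADH and succinate to ubiquinone, complex III passes them on to cytochrome c, and complex IV reduces oxygen. Complexes I, III and IV pump protons, and complex V, the ATP synthase, uses the gradient. All but complex II combine subunits from both genomes, so their assembly needs transcripts made in separate compartments, and T cells are known to raise respiratory capacity during activation and memory formation.

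The compact mitochondrial genome bears on how its transcripts are counted. On GRCm38 (GENCODE M21), mt-Atp8 (chrM:7766-7969) and mt-Atp6 (chrM:7927-8607), the complex V subunits of that genome, overlap. The shared 43 bases at chrM:7927-7969, plus strand, are printed with the mt-Atp6 start codon in capitals:
mt-Atp8 and mt-Atp6 overlap: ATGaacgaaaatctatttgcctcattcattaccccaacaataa
They make up 21.1% of mt-Atp8, and reads that lie wholly within them cannot be assigned to one gene. The mt-Nd4l and mt-Nd4 genes share 7 bases. The gene mt-Nd6 (chrM:13552-14070) lies alone on the minus strand, and the sources used here do not state that counting used strand, so its reads and antisense reads cannot be told apart.

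Promoter sequences from RefSeq (GRCm38.p6, 250 bases before to 50 after each start) were matched for 77 of the 94 nuclear members. Short motifs of factors known to act on respiratory genes were searched on both strands. The NRF1 motif, the 10 bases in capitals in the Atp5g2 window below, was found in 7 of 76 distinct member promoters (9.21%) and in 1.07% of 27025 genes with a promoter. The ETS-family motif CCGGAAG, bound by GABPA, was in 19 of 76 (25.0%) against 9.93%, and the YY1 motif AAGATGGCG in 8 of 76 (10.5%) against 1.64%. The 27025 genes outnumber the 21823 of the count tables and were not matched to the members in expression, so the shares are given side by side only. The windows below come from members that passed a test in one of the comparisons, with the motif in capitals (CTTCCGG is the ETS-family motif read on the other strand):
Atp5g2, 42 bases before the start, chr15:102671071-102671098, minus strand: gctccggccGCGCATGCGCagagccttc
Ndufaf4, 113 before, chr4:24897961-24897988, plus strand: cagatgtctGCGCATGCGCctgtgcgga
Cox6b1, 28 before, chr7:30626127-30626151, minus strand: ctctcgcagCTTCCGGccagtcgga
Cox8a, 5 before and across the start, chr19:7217606-7217630, minus strand: tccgaaataCTTCCGGctcgggcgt
Sdhd, 46 before, chr9:50603880-50603904, minus strand: gtctcctgcCTTCCGGttcacgctt
Ndufb7, 20 before, chr8:83566729-83566753, plus strand: ctagatgacCCGGAAGacactgaag
Ndufa9, 29 after, chr6:126849098-126849124, minus strand: ttgtgggagAAGATGGCGgccgccgtc
Of the called members with a promoter entry, the ETS-family motif was in 2 of the 6 that were higher after pGal than after saline in prophylactic OT-II cells, and in 2 of the 10 that were higher in OT-I than in OT-II cells. These matches describe the letters only, and binding was not measured. The Ndufaf4 promoter, shown because this complex I assembly factor differed between the cell types and no annotated exon lies in the window, holds its NRF1 motif (capitals) near the far end of the 120 bases before the start (chr4:24897963-24898082, plus strand):
Ndufaf4 promoter: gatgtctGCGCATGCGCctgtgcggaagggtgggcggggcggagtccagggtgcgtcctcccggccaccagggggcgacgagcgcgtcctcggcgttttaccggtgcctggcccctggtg

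Total estimated counts were 21.2 to 68.2 M per prophylactic library and 22.6 to 62.5 M per therapeutic library. Cd4 and Cd8a, the coreceptor genes of the CD4 and CD8 lineages, went against the label in 11 therapeutic libraries (OT-I OVA 6 and 8, pGal 5 and 7, saline 3 and 6, and OT-II OVA 6 and 8, pGal 5 and 7, saline 3). No library was given another label. Therapeutic comparisons used the 42 libraries that match (22 OT-I, 20 OT-II), where Cd8a was at 707 to 1372 CPM in OT-I and 0.150 to 10.5 in OT-II libraries. In every prophylactic library the larger of both genes was the one of its label. A member counts as called where edgeR's quasi-likelihood test, adjusted after Benjamini and Hochberg over all genes tested, gave p under 0.05, and 98 to 101 of the 107 members passed the filter on low counts. All levels are CPM (counts scaled to a common library size) after TMM factors, and in bulk samples fewer cells of a type and less RNA per cell cannot be told apart.

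The 13 mitochondrially encoded genes together took about as many counts as the 94 nuclear ones, and varied far more between libraries. The ratio of the summed mitochondrial to the summed nuclear level had a median of 0.757 in the 17 libraries of batch 1 (0.413 to 1.204), 1.61 in the 12 of batch 2 (0.616 to 1.79) and 0.878 in the 42 therapeutic ones (0.240 to 10.4). In prophylactic OT-II cells the summed mitochondrial level was 9574 ± 4755 CPM after saline (SD, n = 5), 10069 ± 4834 after OVA (SD, n = 4) and 14934 ± 5119 after pGal (SD, n = 5). The corresponding nuclear sums were 10328 ± 1617, 9835 ± 1569 and 11408 ± 1145 CPM. In prophylactic OT-I cells the mitochondrial sums were 9658 ± 3115, 12019 ± 5557 and 14051 ± 5230 CPM (SD, n = 5 each), and the nuclear sums 11592 ± 2086, 12507 ± 1575 and 12917 ± 1503. All these groups overlapped in both sums.

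In therapeutic OT-I cells the mitochondrial sum had a median of 6623 CPM after saline (4936 to 10222, n = 6), 7330 after OVA (5512 to 18303, n = 8) and 7857 after pGal (3041 to 12477, n = 8). In therapeutic OT-II cells it was 8261 (6971 to 25386, n = 6), 9903 (7105 to 11605, n = 6) and 9084 (6182 to 56097, n = 8). The highest value belonged to OT-II pGal 9, where mitochondrial genes took 7.31% of all counts and the nuclear sum was the lowest of its group, at 5394 CPM. Among the libraries left out for their coreceptor genes, OT-I pGal 5 and OT-II pGal 5 had 7.93% and 9.08%. The other libraries had up to 2.69%.

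**Figure D1:**
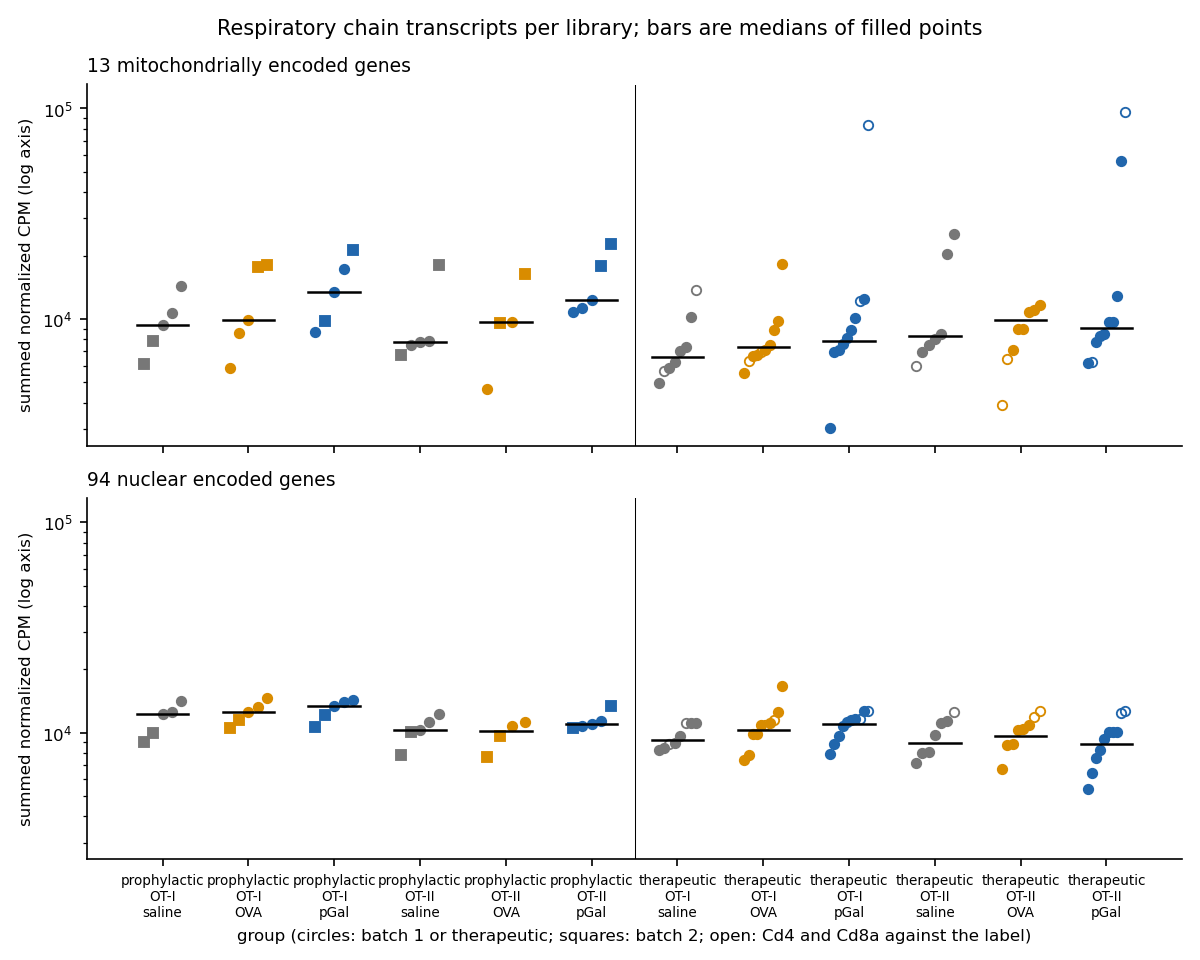
Summed normalized CPM (log axis) of the 13 mitochondrially encoded (top) and 94 nuclear encoded (bottom) genes, one point per library by group, with bars at group medians and open points for libraries whose Cd4 and Cd8a go against the label. The mitochondrial sums spread from 3041 to 95993 CPM, with 56097 or more in 3 libraries, while the nuclear sums keep between 5394 and 16646.

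Per kilobase of transcript (median length of each gene's annotated transcripts), mitochondrially encoded genes led the levels. The complex IV gene mt-Co3 ranked 1 of 107, with a median of 2242 CPM per kb over the 71 libraries used. It was followed by mt-Atp6 (2065), the complex IV genes mt-Co2 (1359) and mt-Co1 (1326), and mt-Cytb, the complex III subunit of that genome (957). The highest nuclear member was Atp5b, the catalytic beta subunit of the ATP synthase, at 569 CPM per kb and rank 6. The complex I genes of the mitochondrial genome were lower, from mt-Nd1 at 526.1 to mt-Nd4l at 82.7 CPM per kb, and mt-Nd6 stood at 143.

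Nuclear subunits ranged widely within each complex. Cox4i1, the common form of complex IV subunit 4, was at 420 CPM per kb, Uqcrc1, a core protein of complex III, at 323, and Sdha, the flavoprotein of complex II, at 237. Ndufa4 was at 237, Ndufs1, an iron-sulfur subunit of complex I, and Cox5a, a complex IV subunit, at 178 each, Sdhb at 158, Cox7a2l, which helps to join complexes III and IV, at 120 and the Rieske protein Uqcrfs1 at 76.2. The 8 complex I assembly factors included the 3 lowest of all members detected at more than 1 CPM per kb, Ndufaf5 (14.2), Ndufaf4 (13.3) and Ndufaf6 (10.0). Isoforms known from muscle, lung, testis or hypoxia were near 0: Cox6b2, Cox7a1 and Cox6a2 had medians of 0.2999, 0.189 and 0.114 CPM, and Cox4i2, Cox7b2, Cox8b, Cox8c and Ndufa4l2 had medians of 0. The symbol Atp5o occurs in 2 rows, one of which (ENSMUSG00000116933) had no counts in 59 of 71 libraries.

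**Figure D2:**
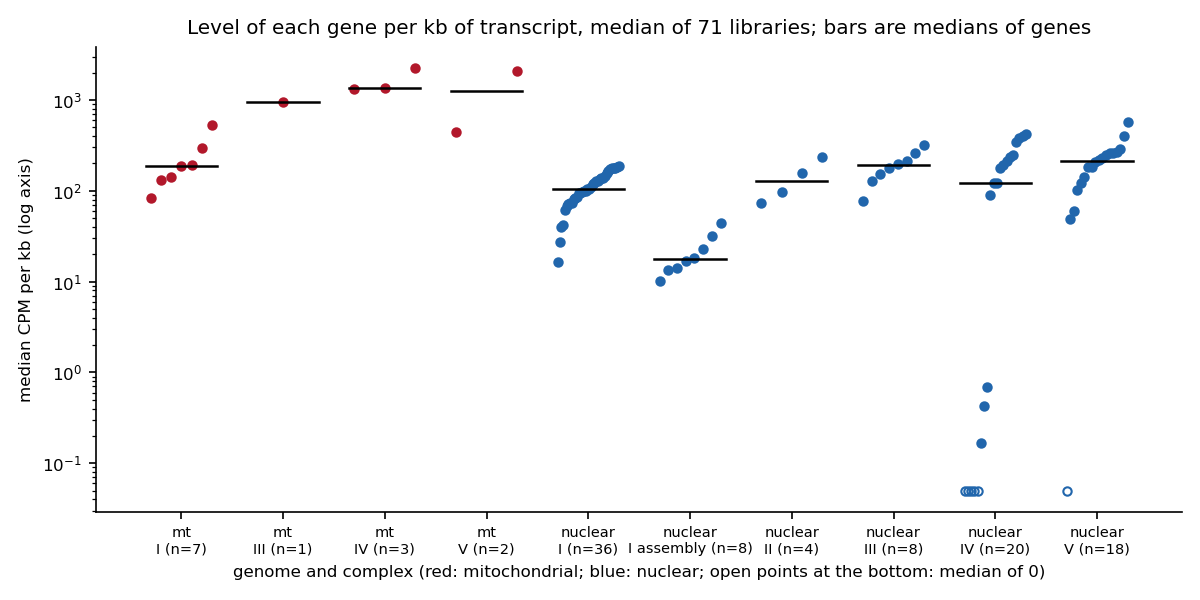
Median CPM per kb of transcript over 71 libraries (log axis), one point per gene by genome and complex, with bars at the median of the genes and open points at the bottom for medians of 0. Genes mt-Co3 and mt-Atp6 reach 2242 and 2065 CPM per kb, and the highest nuclear gene, Atp5b, 569.

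The make-up of the mitochondrial counts also differed between batches. In batch 1, mt-Atp8 took 1.46 to 2.56% of the counts of the 13 genes (median 2.10%), in batch 2 it took 0.339 to 1.08% (0.667%), and in the 42 therapeutic libraries 0.554 to 1.33% (0.881%). The ranges of batches 1 and 2 did not overlap. The minus-strand gene mt-Nd6 took a median of 0.726% in batch 1, 0.453% in batch 2 and 0.932% in therapeutic libraries, whose range, 0.631 to 1.69%, overlapped batch 2 only at 0.635%. In batch 1 mt-Co1 took 16.2 to 23.3% and in batch 2 21.5 to 30.4%. In OT-II pGal 5, one of the 3 libraries with over 5% mitochondrial counts, mt-Atp6 took 6.53% of the counts of the 13 genes, against 7.67 to 18.5% in the 42. Its mt-Nd6, at 0.562%, was also below their range, as was that of OT-I pGal 5, at 0.627%.

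In prophylactic OT-II cells, 8 of the 99 members tested were higher after pGal than after saline and none was lower. Over all 14128 genes tested, 6.37% were higher and 5.34% lower, so 8 of 99 is near the share of all genes. Of the 8, 5 belong to complex IV: mt-Co3, which is one of its mitochondrially encoded core subunits, and the nuclear subunits Cox6c, Cox8a, Cox6b1 and Cox5a. The others were Atp5g2, which encodes the rotor ring subunit c of the ATP synthase, Ndufb5, an accessory subunit in the membrane arm of complex I, and Ndufaf7, a methyltransferase needed for complex I assembly. All 13 mitochondrial and 65 of 86 nuclear members had positive differences, with medians of 0.46 and 0.21 on the log2 scale, beside 0.04 for all genes tested.

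The complex IV subunit Cox6c (chr15:35925886-35938246) was at 76.3, 103, 131, 133 and 149 CPM after saline, at 72.9, 108, 118 and 138 after OVA and at 128, 174, 180, 182 and 193 after pGal. All pGal libraries but one, from batch 2, lay above every saline and OVA library. The log2 difference from saline was 0.56 (SE 0.13, adjusted p = 0.0120), and from OVA 0.62 (SE 0.14, adjusted p = 0.0370). Cox8a (chr19:7215153-7217616), the common form of complex IV subunit 8, was at 129, 159, 162, 179 and 192 CPM after saline and 202, 202, 230, 250 and 297 after pGal. These groups did not overlap (log2 difference 0.53, SE 0.12, adjusted p = 0.0115). The 4 OVA libraries, at 146 to 176 CPM, lay below all pGal libraries too, but that difference, 0.53, had an adjusted p of 0.0502 and was not called.

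Atp5g2 (chr15:102662864-102672352) was at 25.3, 28.1, 30.4, 43.9 and 50.4 CPM after saline and 38.0, 47.4, 49.4, 108 and 109 after pGal. Both highest pGal libraries were from batch 2, and the lower ones overlapped saline (log2 difference 0.86, SE 0.21, adjusted p = 0.0178). The mitochondrial gene mt-Co3 (chrM:8607-9390) was at 1357, 1545, 1699, 1758 and 3400 CPM after saline and 2592, 2938, 2939, 4393 and 5413 after pGal. The groups overlapped through one batch 2 saline library (log2 difference 0.87, SE 0.24, adjusted p = 0.0290). The other core complex IV genes, mt-Co1 and mt-Co2, had differences of 0.76 (adjusted p = 0.0915) and 0.74 (adjusted p = 0.0711).

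Ndufaf7 (chr17:78937136-78948052) was at 18.3 to 24.4 CPM in the saline and 28.2 to 37.5 in the pGal libraries, with no overlap (log2 difference 0.50, adjusted p = 0.0275). For Cox6b1 (148 ± 33.4 after saline, 199 ± 30.9 after pGal), Cox5a (97.3 ± 17.2, 121 ± 14.2) and Ndufb5 (57.2 ± 11.0, 74.1 ± 8.47 CPM; SD, n = 5 in each group) the log2 differences were 0.45, 0.32 and 0.39. Their ranges overlapped, and their adjusted p lay between 0.0443 and 0.0466. No gene of complex II was called: Sdha, Sdhb, Sdhc and Sdhd were at -0.13, -0.01, -0.22 and 0.05, with adjusted p of 0.213 or more, and all 4 were also below 0 against OVA.

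**Figure D3:**
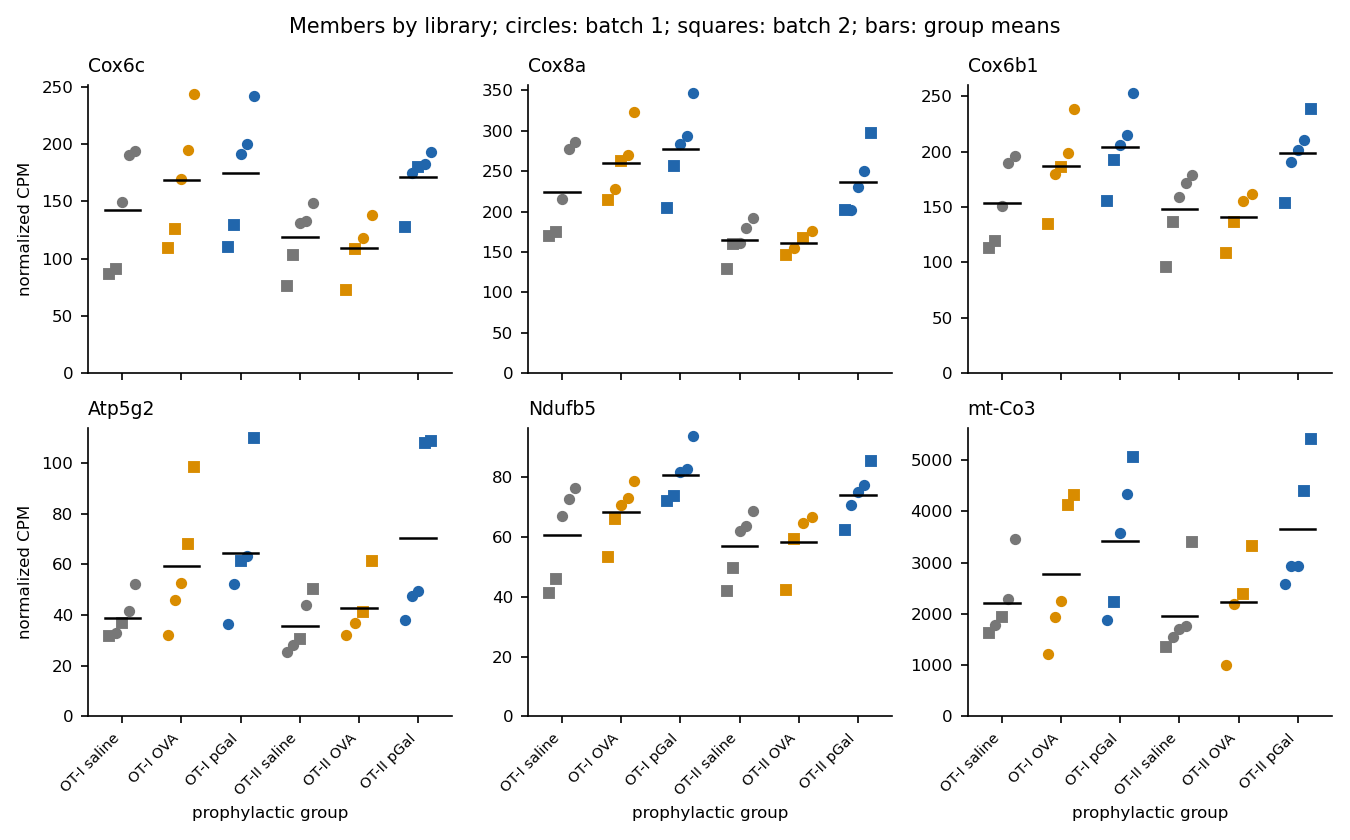
Normalized CPM of Cox6c, Cox8a, Cox6b1, Atp5g2, Ndufb5 and mt-Co3 in each prophylactic library, with circles for batch 1, squares for batch 2 and bars at group means. The OT-II pGal libraries of Cox8a, from 202 to 297 CPM, lie above all OT-II saline and OVA libraries, and the highest Atp5g2 values, 108 and 109 CPM in OT-II cells, are batch 2 squares.

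Against OVA, Cox6c was the only one of 99 members called by edgeR in prophylactic OT-II cells, where 1.11% of all genes were higher and 0.757% lower. At an unadjusted p under 0.05 in edgeR were 31 of the 99, and DESeq2 called more members than edgeR (count in the closing section). The medians were 0.60 for mitochondrial members, all 13 of which were positive, 0.26 for nuclear members and -0.01 for all genes tested. By complex, the medians were 0.78 for the 3 mitochondrial genes of complex IV, 0.38 for the 7 of complex I, 0.40 for nuclear complex IV, 0.32 for nuclear complex V, 0.25 for nuclear complex I and -0.06 for complex II. OVA against saline gave no call in edgeR (1 of 99 members at an unadjusted p under 0.05, and 0 calls in DESeq2), with 0.163% of all genes called. Mitochondrial and nuclear medians there were -0.10 and -0.06. These comparisons share groups, so their values are given side by side only.

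These calls depended on single libraries. The count against saline, 8, was 2 without saline batch 1 replicate 3 or pGal batch 2 replicate 2, 3 without pGal batch 1 replicate 1 or saline batch 1 replicate 2, 4 without pGal batch 1 replicate 2, saline batch 1 replicate 1 or saline batch 2 replicate 1, and 5 without OVA batch 1 replicate 3. Cox6c and Cox8a kept their call against saline without each of the 14 libraries in turn. Against OVA, Cox6c kept its call without OT-II pGal batch 1 replicate 3, OVA batch 2 replicate 1 or saline batch 2 replicate 1, and lost it without each of the other 11. Within batch 1 alone Cox6c rose by 0.41 on the log2 scale (adjusted p = 0.0325) and Cox8a was at 0.36 (adjusted p = 0.0752), and within batch 2 alone, with 2 libraries a group, they were at 0.74 and 0.75 with adjusted p of 0.347 and 0.290. The median of the nuclear members was -0.02 in batch 1 and 0.47 in batch 2.

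Other transcripts moved with these groups. The summed level of 10 genes known to respond to cell handling (Fos, Jun, Hspa1a and others) was 8190 to 12877 CPM in the prophylactic OT-II saline libraries and 2225 to 10487 in the pGal libraries. Of these genes 2 of 10, Junb and Dnajb1, were called lower after pGal and none higher. That of 9 B cell markers was 53.4 to 746 CPM after saline and 35.6 to 3655 after pGal, highest in pGal batch 1 replicate 3. The 4 OVA libraries spread further, from 58.6 to 6880 CPM. Among them, OVA batch 2 replicate 2 had Cd79a at 1318 CPM, the myeloid gene Lyz2 at 1020 and Cd4 at 236. The sum of 10 cycling markers was 86.6 to 162 CPM after saline and 133 to 418 after pGal (5 of 10 called higher). No gene of these lists was at 0 in most of the 71 libraries used, and their part in the result was not tested. Without the 3 prophylactic OT-II libraries in which the B cell gene Cd79a was above 100 CPM, Cox6c, Cox8a, Atp5g2, mt-Co3 and Ndufaf7 kept their calls, and Cox6b1, Cox5a and Ndufb5 lost them.

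In prophylactic OT-I cells, 3 of 101 members were higher after pGal than after saline, and none lower, against 2.51% and 0.654% of all genes. Ndufb5 was at 41.2, 45.9, 67.1, 72.9 and 76.5 CPM after saline and 72.2, 73.9, 81.9, 82.7 and 93.98 after pGal (log2 difference 0.45, SE 0.10, adjusted p = 0.0259). The ranges overlapped, with both batch 2 libraries lowest in each group. Cox4i1 (chr8:120668222-120674207) was at 284 ± 62.7 and 369 ± 32.7 CPM (SD, n = 5 each; log2 difference 0.40, adjusted p = 0.0297), and Atp5g3, which encodes the same ATP synthase subunit c as Atp5g2, at 236 ± 61.5 and 295 ± 57.2 (0.34, adjusted p = 0.0412). All 3 overlapped between groups. Medians were 0.41 for mitochondrial and 0.20 for nuclear members, and -0.00365 for all genes tested.

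That count of 3 fell to 0 without any one of saline batch 1 replicate 3, saline batch 2 replicate 1, saline batch 2 replicate 2, pGal batch 2 replicate 1 or pGal batch 2 replicate 2. It was 1 without pGal batch 1 replicate 2 or saline batch 1 replicate 2, 5 without OVA batch 1 replicate 3 or OVA batch 2 replicate 2, and 7 without saline batch 1 replicate 1. OVA against saline gave 0 member calls in edgeR, with 29 of 101 members at an unadjusted p under 0.05 and 6 calls in DESeq2, while 5.31% of all genes were called. Its medians were 0.24 for mitochondrial and 0.19 for nuclear members. Without saline batch 1 replicate 1 or OVA batch 1 replicate 3 there were 4 calls, without OVA batch 2 replicate 1 there were 2, and without pGal batch 2 replicate 2 there was 1. Cycling markers moved with both treatments: 8 of 10 were called higher after pGal (list median 1.49) and 9 of 10 after OVA (1.90), with sums of 178 to 275 CPM after saline, 354 to 680 after OVA and 245 to 657 after pGal. Handling genes summed to 4015 to 6295 CPM after saline and 2358 to 6308 after pGal, and B cell markers to 63.6 to 1582 and 59.5 to 109, with no gene of either list called, and the part of these genes in the result was not tested. For pGal against OVA no gene at all was called (0% of 14066), 1 member was at an unadjusted p under 0.05, and DESeq2 called 0.

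Interaction terms asked whether OT-I cells responded otherwise than OT-II cells. No member was called for OVA against saline (3 of 101 at an unadjusted p under 0.05, with 0.0337% of all genes called), for pGal against saline (1 of 101, 1.17%) or for pGal against OVA (10 of 101, 0.505%). No DESeq2 result was kept for these terms. The last difference, OT-I minus OT-II, had medians of -0.18 for mitochondrial and -0.21 for nuclear members, and its smallest adjusted p among members was 0.241. So neither the 8 calls in OT-II cells nor the 3 in OT-I cells is shown to be particular to its cell type.

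**Figure D4:**
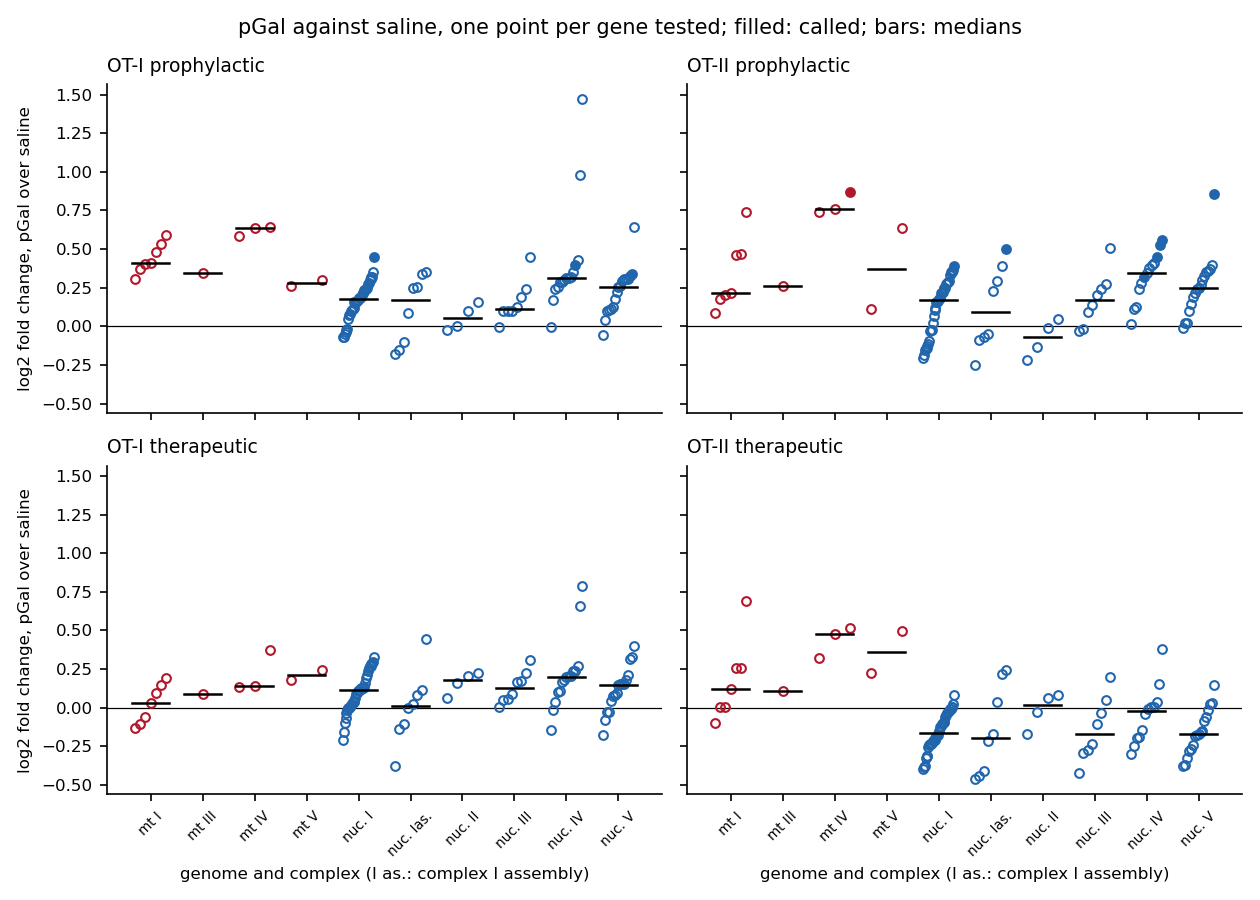
Log2 fold change of pGal over saline for each member tested, by genome and complex, in the prophylactic (top) and therapeutic (bottom) OT-I (left) and OT-II (right) cells, with filled points for called members and bars at medians. The 3 mitochondrial complex IV genes have medians of 0.64 and 0.76 in the prophylactic panels, complex II lies at 0.05 and -0.07 there, and no therapeutic point is filled.

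In therapeutic cells no member was called in any of the 6 treatment comparisons by edgeR or DESeq2. For OT-I cells 0.686% of all genes were called in OVA against saline, 0% in pGal against saline and 0% in pGal against OVA, and 9, 1 and 0 of 101 members were at an unadjusted p under 0.05. For OT-II cells the shares were 1.54%, 0.00702% and 0%, with 4, 1 and 0 of 98 members. The interaction terms called no member either (2, 3 and 1 of 101 at an unadjusted p under 0.05), with 0.121%, 0% and 0% of all genes called.

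The largest mitochondrial median in these cells, 0.77 for pGal against OVA in OT-II cells with all 13 genes positive, went with 1 library. Without OT-II pGal 9 it was -0.08, and the median for pGal against saline went from 0.26 to -0.51. The saline group of that last fit kept OT-II saline 1 and saline 7, with mitochondrial sums of 25386 and 20328 CPM, beside 6971 to 8511 in the others. Nuclear members were at -0.08 with OT-II pGal 9 and -0.03 without it against OVA. With all 53 libraries as labelled, the mitochondrial medians of pGal against OVA were 0.91 in OT-I and 1.38 in OT-II cells, and no member was called. That fit added all 11 libraries at once, among them OT-I pGal 5 and OT-II pGal 5, with mitochondrial to nuclear ratios of 6.58 and 7.72. As labelled but without the libraries of over 5% mitochondrial counts, both medians were 0.07.

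Cell types were compared in the saline groups. In the prophylactic experiment 11 of 101 members were higher in OT-I than in OT-II cells and none lower, against 10.0% and 8.12% of all genes. All 11 are nuclear encoded: Ndufa10 and Ndufa9, accessory subunits of complex I; the assembly factors Ndufaf4, Ndufaf6 and Ndufaf7; Sdhd, a membrane anchor of complex II; Cox5a, Cox8a and Ndufa4 of complex IV; and Atp5b and Atp5g1 of the ATP synthase. None of the 13 mitochondrial members was called, and the medians of both genomes were alike, at 0.10 and 0.11.

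Ndufa4 (chr6:11900292-11907497) was at 89.9, 98.2, 166, 195 and 204 CPM in OT-I and 62.5, 79.5, 109, 116 and 140 in OT-II saline libraries. The lower pair in each cell type was batch 2, and within each batch all OT-I values lay above all OT-II values (log2 difference 0.55, SE 0.12, adjusted p = 0.00140). Cox5a was at 102, 105, 147, 162 and 171 against 70.9, 95.9, 97.9, 103 and 118 CPM (0.48, SE 0.10, adjusted p = 0.00145). Ndufa10 was at 124, 151, 156, 172 and 175 against 90.2, 104, 119, 131 and 133 CPM (0.43, SE 0.10, adjusted p = 0.00291). Both overlapped only through batch 2.

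Atp5b (chr10:128083273-128090391) was at 1450, 1501, 1639, 1803 and 1819 CPM in OT-I and 1150, 1269, 1300, 1344 and 1397 in OT-II libraries. The groups did not overlap (log2 difference 0.35, SE 0.08, adjusted p = 0.00358), nor did those of Ndufa9 and Ndufaf7. The largest difference was that of Ndufaf6, at 14.8 ± 2.90 against 9.35 ± 2.88 CPM (SD, n = 5 each; 0.68, SE 0.18, adjusted p = 0.00702). Atp5g1 (182 ± 33.3 against 128 ± 18.9), Ndufaf4 (39.5 ± 10.3 against 27.1 ± 6.77) and Sdhd (147 ± 15.7 against 119 ± 13.9 CPM) had log2 differences of 0.50, 0.53 and 0.30, with overlapping ranges. Same-numbered saline libraries of both cell types deviated together, and with the number as a block across treatments 9 of the 11 kept their calls, without Ndufaf7 and Sdhd. With the number within each treatment as a block, 10 kept theirs, without Ndufaf7. Leaving out OT-II saline batch 1 replicate 2 or OT-II saline batch 2 replicate 1 gave 7 calls.

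Batch 2 alone, with 2 saline libraries a cell type, called none of them, and its mitochondrial median was -0.94 against 0.65 in batch 1. One OT-II saline library of batch 2 had a mitochondrial sum of 18043 CPM, and the other OT-II saline libraries 6714 to 7816. Cycling markers summed to 178 to 275 CPM in OT-I and 86.6 to 162 in OT-II saline libraries (5 of 10 called higher, none lower), and handling genes to 4015 to 6295 and 8190 to 12877 CPM (4 of 10 called lower, Jun, Junb, Egr1 and Dusp1, none higher). Neither sum overlapped, B cell markers (63.6 to 1582 and 53.4 to 746 CPM) did, and the part of these genes in the result was not tested.

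In the therapeutic saline groups 2 of 101 members were called: mt-Cytb was lower in OT-I than in OT-II cells and Cox6a2, the muscle form of complex IV subunit 6a, was higher, against 4.42% of all genes higher and 4.59% lower. mt-Cytb (chrM:14145-15288) was at 572 to 1207 CPM in the OT-I libraries (median 807, n = 6) and 1112 to 4013 in the OT-II libraries (median 1270, n = 6). The highest 2 OT-II values, 3565 and 4013 CPM, were from saline 1 and saline 7, which also had the largest mitochondrial sums of the group, 25386 and 20328 CPM (log2 difference -1.28, SE 0.41, adjusted p = 0.0418). All 13 mitochondrial members were negative, with a median of -0.85, and nuclear members had a median of -0.01. Cox6a2 had 1, 5, 9, 14, 15 and 22 counts in the OT-I libraries and 0, 0, 0, 0, 1 and 1 in the OT-II libraries, all under 1 CPM, so no fold is given. Both calls were lost when libraries with Cd79a above 100 CPM were left out, and when all libraries entered as labelled. The saline library that the Cd79a limit took out was OT-II saline 7 (113 CPM), one of those with the highest mt-Cytb. The fit as labelled put OT-I saline 3 and 6 and OT-II saline 3, whose coreceptor genes go against the label, into the compared groups. With the library number within each treatment as a block, mt-Cytb was no longer called. None of the 11 genes of the prophylactic comparison was called here, and the experiments' cell type differences were not tested against each other.

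Saline libraries were also compared between the experiments. In OT-I saline cells, 17 of 101 members passed the test between therapeutic and prophylactic libraries, 4 higher and 13 lower in the therapeutic ones, against 14.2% and 13.1% of all genes. Those lower included members of each complex: the core subunits Ndufs1 and Ndufv2 of complex I, Sdha and Sdhc of complex II, Uqcrc2 and Uqcrfs1 of complex III, Ndufa4 of complex IV, and Atp5b and Atp5g1 of complex V, with the assembly factor Ndufaf6 and the mitochondrial genes mt-Atp8 and mt-Co3. Higher were mt-Nd6, the assembly factor Ndufaf2, and Ndufb7 and Ndufa2, small accessory subunits of complex I. The medians were -0.34 for mitochondrial members, -0.06 for nuclear members and 0.07 for all genes tested.

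Sdha (chr13:74322254-74350280) was at 494, 513, 524, 596 and 604 CPM in prophylactic OT-I saline libraries and 187 to 376 (median 311, n = 6) in therapeutic ones. The groups did not overlap (log2 difference -0.86, SE 0.16, adjusted p = 0.00169). Atp5b was at 774 to 1130 CPM (median 898) in the therapeutic libraries, all below the 1450 of the lowest prophylactic library (-0.84, SE 0.13, adjusted p = 4.4e-04). Ndufs1 (143 ± 9.62, n = 5, and 91.2 ± 16.7 CPM, n = 6, SD; log2 difference -0.66) and Uqcrc2 (190 ± 16.4 and 123 ± 22.0; -0.62) did not overlap either. Ndufaf2 was at 5.32, 6.21, 7.37, 8.08 and 8.24 CPM in the prophylactic and 8.92 to 14.9 in the therapeutic libraries (0.80, SE 0.21, adjusted p = 0.0130).

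The same contrast in OT-II cells called 3 of 101 members, against 5.62% of all genes higher and 3.31% lower. Sdha was lower (465, 542, 557, 572 and 595 CPM prophylactic, 211 to 448 therapeutic with a median of 320, n = 6; log2 difference -0.79, adjusted p = 0.0254), and so was Atp5b (1150 to 1397 and 700 to 1083 CPM; -0.54, adjusted p = 0.0430). Neither overlapped between the experiments. Ndufaf2 was higher (7.43 ± 3.47, n = 5, and 15.0 ± 5.19 CPM, n = 6, SD; 1.29, adjusted p = 0.0325), with overlap. All 3 lost their calls when any single prophylactic library was left out. All 4 complex II genes were below 0 in OT-I and in OT-II cells, with medians of -0.48 and -0.50. Mitochondrial members had a median of 0.38 in OT-II cells, nuclear members 0.02 and all genes tested 0.14.

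The values in OT-I cells differed by batch. Against batch 1 alone mt-Atp8 was at -2.11, and against batch 2 alone at -0.05; mt-Nd6 was at 0.08 and 1.41, and Ndufa4 at -0.86 and 0.12. Sdha, at -0.79 and -0.86, and Atp5b, at -0.84 and -0.76, were called against each batch alone. Without OT-I saline batch 1 replicate 1, batch 1 replicate 2, batch 2 replicate 1 or batch 2 replicate 2 the count of 17 was 9, 11, 7 and 8. Across the 88 nuclear members tested, longer transcripts had lower values in OT-I cells (Spearman's rho -0.42 across genes, which are not independent; all genes -0.01). Members with transcripts of 1000 bases or more had a median of -0.33 (24 genes) and shorter ones 0.02 (64 genes), while in OT-II cells rho was -0.15. Cycling markers (9 of 10 called higher in the therapeutic OT-I saline libraries, list median 2.47) and handling genes (8 of 10, median 1.91) differed in the same contrast. Their sums were 178 to 275 CPM in prophylactic and 241 to 1085 in therapeutic libraries for cycling, and 4015 to 6295 and 12938 to 22088 CPM for handling. In OT-II cells 2 and 6 of 10 were called higher, with handling sums of 8190 to 12877 and 20370 to 46103 CPM. The part of these genes in the result was not tested, and immunization, sorting medium, pooling and run cannot be told apart here.

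**Figure D5:**
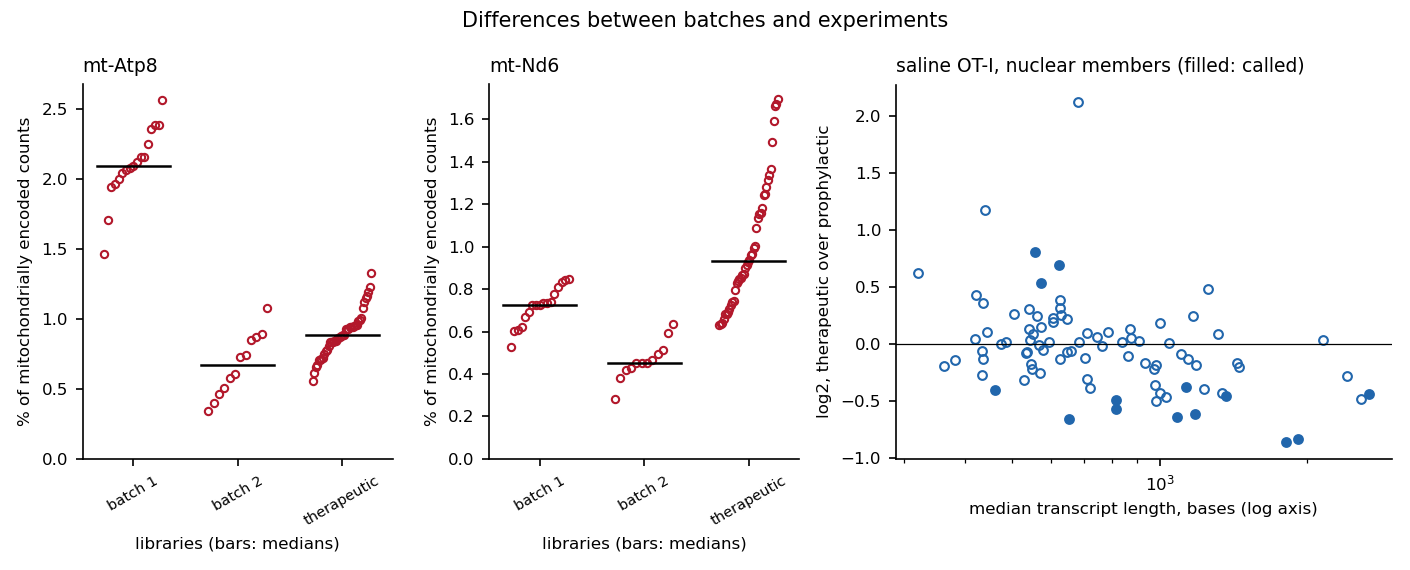
Share of mt-Atp8 (left) and mt-Nd6 (middle) in the counts of the 13 mitochondrially encoded genes, per library by batch or experiment with bars at medians, and (right) the log2 difference of therapeutic over prophylactic OT-I saline libraries against median transcript length (log axis) for 88 nuclear members, called ones filled. The mt-Atp8 shares of batch 1, 1.46 to 2.56%, lie above all others, and Sdha and Atp5b, with lengths of 1811 and 1916 bases, are the lowest points on the right.

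Other mitochondrial genes were followed in lists that do not overlap the members. After pGal against saline in prophylactic OT-II cells, 3 of 39 tested electron carriers and assembly factors, 3 of 25 genes for mitochondrial genome expression, 5 of 78 mitochondrial ribosomal proteins, 4 of 10 regulators and 0 of 16 genes of the tricarboxylic acid cycle were called. Among all genes 6.37% were higher and 5.34% lower, and the first 3 lists are near or below that share. Atpif1, the inhibitor of the ATP synthase, rose by 0.92 on the log2 scale (adjusted p = 0.00258), while Uqcc1, an assembly factor of complex III, fell by 0.64 and Ttc19 by 0.50. Among regulators, Pprc1, a coactivator related to PGC-1, fell by 0.88 (adjusted p = 7.5e-04), Nrf1 by 0.55 (adjusted p = 0.00440) and Ppargc1b by 0.58 (adjusted p = 0.0232), and Esrra rose by 0.52 (adjusted p = 0.0344). Trmt10c, Pnpt1 and Supv3l1, which process or degrade mitochondrial RNA, fell by 0.77, 0.46 and 0.43. Against OVA, Pprc1 was at -0.69 in the same cells (adjusted p = 0.0196).

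In prophylactic OT-I cells Atpif1 rose by 0.50 after pGal and 0.47 after OVA against saline (adjusted p = 0.0421 and 0.0410), and Myc, a regulator of growth and mitochondrial genes, fell by 0.47 in both. Between the cell types under saline, Myc was higher in OT-I cells by 1.29 (prophylactic, adjusted p = 2.2e-06) and 0.85 (therapeutic, adjusted p = 0.0164). The mitochondrial DNA polymerase Polg was at -1.08 and -0.82. Prophylactic OT-I cells also had 4 of 16 tricarboxylic acid cycle genes higher, led by Idh3a (0.94, adjusted p = 6.0e-09), and 11 of 78 mitochondrial ribosomal proteins higher and 3 lower, beside 10.0% higher and 8.12% lower among all genes.

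Between the experiments in OT-I saline cells, 6 of 16 tricarboxylic acid cycle genes were lower and none higher, with a list median of -0.44, beside 13.1% lower and 14.2% higher among all genes. They included Cs, Idh3a, Ogdh, Pdha1 and Dlat, which lead carbon into the cycle or oxidize it there, with values from -0.52 to -0.87. Other lists went both ways in OT-I cells. Of 25 genes for mitochondrial genome expression 2 were higher and 5 lower, of 39 carriers and assembly factors 6 and 7, and of 78 mitochondrial ribosomal proteins 6 and 6. In OT-II cells these were 0 and 1, 2 and 1, and 3 and 0, beside 5.62% higher and 3.31% lower among all genes. Lrpprc, which stabilizes mitochondrial transcripts, was at -0.95 in OT-I and -0.77 in OT-II cells (adjusted p = 7.7e-04 and 0.0457). Atpif1 was higher by 0.74 and 0.97.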

How the data were processed

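Values in the authors' deposited tables are estimated counts, whole numbers for each gene. The submitters' processing notes name kallisto 0.46.1, bcl2fastq and the build GRCm38, with no account of how transcripts became genes. Libraries (SmartSeq v4, paired reads, per the labels' protocols) were grouped as labelled. The 21823 genes shared by the 3 tables went through filterByExpr and TMM scaling, and edgeR 4.0.16 (robust quasi-likelihood, R 4.3.3) gave the fits. Prophylactic fits had a batch term, and experiment contrasts set therapeutic libraries against the mean of both batches. Calls needed an adjusted p (Benjamini-Hochberg) under 0.05. DESeq2 1.42.0, other scalings, filters, blocks and left-out libraries were alternatives. Fits were tested on simulated data. GENCODE M21 gave coordinates and lengths, and RefSeq the promoters.

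Total counts give the depth, 21.2 to 68.2 M per library. Amplified reads are not independent molecules, so the spread between libraries was used for errors. Libraries rich in B cell transcripts had Cd79a above 100 CPM. The labels give same-numbered libraries of different treatments nothing in common but the number. Their median correlations ran from -0.234 (prophylactic OT-II OVA and saline) to 0.126 (therapeutic OT-I pGal and OVA, and prophylactic OT-II pGal and saline). Prophylactic saline OT-I and OT-II libraries with the same number and batch deviated together (correlation 0.214 to 0.468 in all 5 pairs). In the therapeutic experiment, correlations of same-numbered OT-I and OT-II libraries had medians of 0.336 (pGal), 0.147 (OVA) and 0.2135 (saline). They were over 0.1 in 7 of 8, 4 of 6 and 3 of 5 pairs. Differently numbered libraries had medians of -0.039, -0.003 and -0.045. Same-numbered libraries thus tended to deviate together here too, but the main fits did not take them as pairs. The number within treatment was a block in an alternative. Named genes were those set in the rule (mitochondrial genes, Sdha, Sdhb, Ndufa4, Ndufs1, Uqcrc1, Uqcrfs1, Cox4i1, Cox5a, Cox7a2l and tissue isoforms), and per complex the called members with the largest difference or smallest p; others were named after their values were seen. The members, lists and tests were chosen with earlier results of these data known. Some called genes are counted but not reported by name here.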

Additional observations from a re-analysis of the deposited data

Results flagged for a closer look

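Each combination of group and sum (24 in all) was tested for a single library far from the rest, where chance flags about 1 in 20. Flags came up in 3 of the 24. All 3 were in the summed level of the 13 mitochondrially encoded genes. Prophylactic OT-II saline batch 2 replicate 2 had 18040 CPM, and the nearest library of its group 7816. Therapeutic OT-II pGal 9 had 56100 CPM, against 12850 for the nearest, and therapeutic OT-I OVA 2 had 18300 CPM against 9728. Libraries outside the comparisons, because Cd4 and Cd8a went against their label, also had high sums: 83400 CPM in therapeutic OT-I pGal 5 and 95990 CPM in therapeutic OT-II pGal 5, where the highest therapeutic saline library had 25390. These libraries carry the same number and treatment. No cause was tested.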

How the results depend on the processing

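The values are counts of members called. With DESeq2 the counts were 6 for OVA against saline and 12 for pGal against saline in prophylactic OT-I cells, 16 against saline and 14 against OVA for pGal in OT-II cells, 4 for the therapeutic cell types, and 26 (OT-I) and 5 (OT-II) between experiments. RLE factors gave 2 for pGal against OVA in prophylactic OT-II cells. A minimum of 10 counts gave 5 there against saline and 1 for the therapeutic cell types, and scaling on nuclear genes gave 5 against saline. With a replicate block, OT-II pGal gave 3 against saline and 0 against OVA, and both experiment contrasts 0; the block moved no other count by over 1.5 times. A replicate block within treatment, added after seeing the data, gave 11 and 2 calls for the prophylactic and therapeutic cell types and 0 for the 6 interactions, and mt-Cytb was no longer called. Without libraries rich in B cell transcripts, pGal against saline gave 0 in prophylactic OT-I and 5 in OT-II cells, the therapeutic cell types 0, and the experiments 7 and 1. In batch 1 alone these were 0, 3, not applicable, 28 and 0. In batch 2 alone pGal gave 0 against saline in both cell types and 0 against OVA in OT-II cells, the prophylactic cell types 0, and the experiments 8 and 0, and Ndufa4 in OT-I cells turned to 0.12 between the experiments. The therapeutic cell types gave 0 as labelled. After seeing the data, libraries with over 5% mitochondrial counts were left out (5 for the therapeutic cell types, and 0 as labelled), as were OT-I libraries with Cd4 above 100 CPM (1 for pGal against saline in prophylactic OT-I cells). Leaving out single libraries gave 0 to 4 for OVA and 0 to 7 for pGal against saline in prophylactic OT-I cells, 2 to 9 against saline and 0 to 2 against OVA for pGal in OT-II cells, 7 to 11 for the prophylactic cell types, and 7 to 12 (OT-I) and 0 (OT-II) between the experiments. The causes were not tested. Depth limits the members under 1 CPM, such as Cox6a2.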
